A study of Mus musculus with 31 samples.

Results

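The 10 integrin genes described here are Itgae, Itga1, Itga2, Itga4, Itgal, Itgam, Itgav, Itgb1, Itgb2 and Itgb7. They were taken by name from the known integrins of natural killer (NK) cells, innate lymphocytes that kill infected and tumour cells, and each symbol matched 1 Entrez identifier among the 27179 genes of the count table. RNA was sequenced from 31 libraries of sorted mouse NK cells in 9 groups, from 3 genotypes each in 3 conditions. Cells were wild type (WT), TGFBRII KO, which lacks the type II receptor for TGF-β (gene Tgfbr2), and CIS KO, which lacks the cytokine signalling inhibitor CIS (gene Cish). Each genotype was studied unstimulated and after 4 h or 24 h of the cytokine TGFB1. The labels give no time for the unstimulated cells, and no untreated group at 4 h or 24 h was included. A response below is a treated group against the unstimulated one, in which TGFB1 and elapsed time cannot be told apart. WT had 4 unstimulated libraries, 2 at 4 h and 4 at 24 h. TGFBRII KO had 3 libraries in each condition and CIS KO had 4 in each. The organ, the age and sex of the mice, the TGFB1 dose and the way each knockout was made were not stated in the labels. The labels number the libraries as biological replicates without saying whether each came from a separate mouse.

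Integrins are adhesion receptors made of 1 α and 1 β chain, and the pairing sets the ligand. Itgae encodes CD103, the αE chain, which pairs with β7 (Itgb7) and binds E-cadherin on epithelial cells. Itga1 and Itga2 encode CD49a and CD49b, collagen-binding chains that both pair with β1 (Itgb1). CD49b marks circulating mouse NK cells, and CD49a marks tissue-resident NK cells and type 1 innate lymphoid cells. Itga4 encodes CD49d, which pairs with β1 or β7 and binds VCAM-1, fibronectin and MAdCAM-1. Itgal (CD11a) and Itgam (CD11b) pair with β2 (Itgb2) to bind ICAM molecules, and CD11b rises as NK cells mature. Itgav encodes αv, which binds the latent form of TGF-β and can release the active cytokine. TGF-β signals through its type I and type II receptors to SMAD proteins and is known to induce CD103 in T cells.

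SMAD3 and SMAD4 bind a short DNA element, the CAGA box. The promoter windows of 3 members that hold this element are shown. Itga1 and Itgb7 were higher after TGFB1 in WT cells. Itga2, the neighbour of Itga1 on chromosome 13, had too few counts to pass the count filter, so its response is not settled. Each window is the 250 bases before a RefSeq start in GRCm38.p6, read 5′ to 3′ on the gene's strand, which is the minus strand for all 3. The Itgb7 window lies inside the span of the gene, chr15:102215994-102233405, so the start used for it is an internal one. Itga1 covers chr13:115101965-115102214, Itga2 covers chr13:114932101-114932350 and Itgb7 covers chr15:102231936-102232185. Capitals mark CAGAC or its other-strand form GTCTG.
Itga1: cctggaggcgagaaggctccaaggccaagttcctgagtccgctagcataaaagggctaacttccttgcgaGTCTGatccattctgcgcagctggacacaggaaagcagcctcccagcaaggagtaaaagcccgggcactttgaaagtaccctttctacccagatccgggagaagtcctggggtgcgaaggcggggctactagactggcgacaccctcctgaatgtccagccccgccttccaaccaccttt
Itga2: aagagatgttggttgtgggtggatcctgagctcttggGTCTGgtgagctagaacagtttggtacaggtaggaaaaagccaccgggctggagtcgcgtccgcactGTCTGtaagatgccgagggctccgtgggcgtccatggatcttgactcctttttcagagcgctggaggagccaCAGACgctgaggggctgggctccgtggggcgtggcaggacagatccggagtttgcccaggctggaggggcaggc
Itgb7: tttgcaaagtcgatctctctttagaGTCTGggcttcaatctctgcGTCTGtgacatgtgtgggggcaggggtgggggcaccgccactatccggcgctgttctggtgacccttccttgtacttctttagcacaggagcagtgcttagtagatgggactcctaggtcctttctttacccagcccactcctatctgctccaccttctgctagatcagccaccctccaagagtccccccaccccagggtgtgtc
Itga1 holds GTCTG once, 180 bases before the start. Itga2 holds GTCTG at 213 and 146 bases and CAGAC at 74 bases before the start. Itgb7 holds GTCTG at 225 and 205 bases before the internal start used for it. Promoter windows were at hand for 7 of the 10 genes (Itga1, Itga2, Itga4, Itgam, Itgav, Itgb1 and Itgb7), and 5 of these 7 held CAGAC on either strand, beside 42.2% of 32851 RefSeq promoter windows of that length. The RUNX motif TGTGGT was in 1 of the 7, Itga4, beside 14.1% of all windows. The T-box core AGGTGT was in 0 of the 7, beside 11.8%. These matches describe letters in a window and say nothing of binding.

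Library totals ran from 297561 to 1403005 counts with a median of 736193. The number of counts therefore limits what can be seen of weakly expressed genes. All 9 NK cell markers checked, Ncr1 and Klrb1c among them, passed the count filter, with a summed level of 2367 to 5173 CPM (counts scaled to a common library total, with TMM factors). Markers of other cell types were fewer. For B cells 0 of 5 and for platelets 0 of 4 passed. Of 9 myeloid markers, Cd68 and Cd14 passed, with a summed level of 17.9 to 49.4 CPM for the list, and C1qa, S100a9 and Ly6g were at 0 in every library. Of 6 dendritic cell markers, Xcr1, Zbtb46 and H2-Ab1 passed, with a sum of 95.1 to 203 CPM, and Clec9a, Flt3 and Siglech were at 0. Of 8 T cell markers, Cd3d, Cd3e, Cd3g and Trac passed, with a sum of 182 to 319 CPM. Gata3, also known in NK cells, and Il1rl1 passed among 5 markers of group 2 and 3 innate lymphoid cells, with a sum of 126 to 301 CPM and Il22 at 0. Epcam and Pecam1 passed among 5 of stroma and epithelium, with a sum of 262 to 487 CPM and Col1a2 and Krt8 at 0. Cish measured 158 ± 21.6 CPM in unstimulated WT and 25.2 ± 6.77 CPM in unstimulated CIS KO (SD, n = 4 each). Tgfbr2 stood at 213 ± 26.6 CPM in unstimulated WT and 230 ± 8.18 CPM in unstimulated TGFBRII KO (SD, n = 4 and 3), so its count does not check that label. The genotypes also differed in sex-linked RNA: Xist ran from 91.1 to 222 CPM in WT, 12.6 to 131 CPM in TGFBRII KO and 0 to 5.22 CPM in CIS KO. The sum of 4 Y-linked genes ran from 1.38 to 124 CPM in WT, 187 to 451 CPM in TGFBRII KO and 392 to 558 CPM in CIS KO. Every TGFBRII KO library thus held both kinds of RNA, and WT libraries differed among themselves. Genotype and whatever accompanies the difference in sex-linked RNA cannot be told apart in the comparisons between genotypes.

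**Figure D1:**
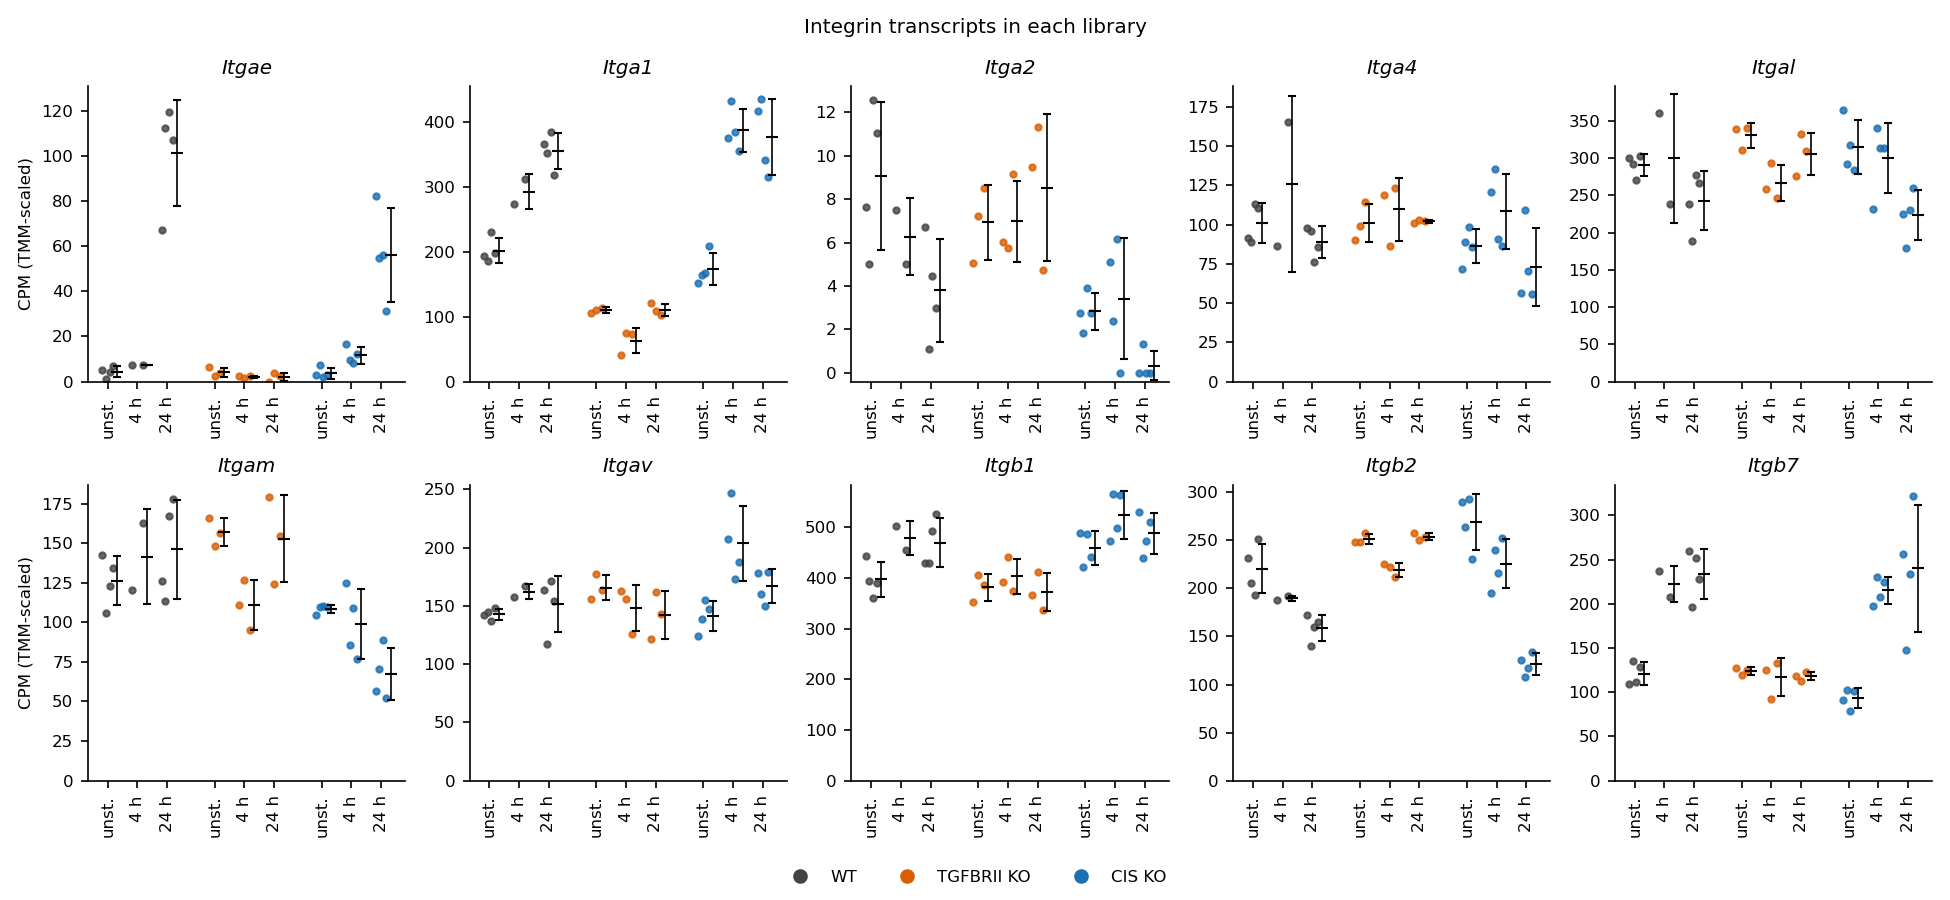
Level of each of the 10 integrin genes (vertical axis, TMM-scaled CPM) in every library of the 9 groups; points are libraries and the bar beside them is the mean ± SD. Itgae stands at 67.1 to 119 CPM in WT and 31.3 to 82.1 CPM in CIS KO at 24 h and at or below 16.6 CPM elsewhere, while Itga1 in TGFBRII KO stays at or below 121 CPM.

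CD103 mRNA went from nearly undetected to readily counted by 24 h in WT and CIS KO cells, and its partner β7 was higher from 4 h on. Itgae held 2 and 6 counts in the WT libraries at 4 h, too few to tell whether it had begun to rise by then. The WT step from 4 h to 24 h was 3.72 ± 0.44 for Itgae and 0.10 ± 0.19 for Itgb7 (log2 ± SE, edgeR adjusted p = 7.18e-07 and 0.819). The difference between these 2 steps was not tested. In unstimulated WT cells Itgae measured 5.08, 1.25, 4.19 and 6.91 CPM in the 4 libraries, which are 1 to 5 counts each. After 4 h of TGFB1 the 2 WT libraries measured 7.52 CPM each. After 24 h the 4 WT libraries measured 67.1, 112, 119 and 107 CPM. All 4 libraries at 24 h lay above all others of WT, and the groups did not overlap. The rise at 24 h was 4.51 ± 0.32 on the log2 scale (± SE), or 22.8-fold, with an adjusted p of 4.38e-13 by edgeR's quasi-likelihood test with Benjamini-Hochberg adjustment over 10275 genes, which gives every adjusted p below. From 4 h to 24 h it was 3.72 ± 0.44 (adjusted p = 7.18e-07), and from the unstimulated state to 4 h it was 0.79 ± 0.70 (adjusted p = 0.502). In bulk RNA, fewer cells expressing a gene and less RNA per cell cannot be told apart.

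In CIS KO cells Itgae measured 2.76, 7.42, 1.96 and 2.78 CPM unstimulated. At 4 h the values were 16.6, 9.51, 8.24 and 12.4 CPM, and at 24 h they were 82.1, 54.6, 56.1 and 31.3 CPM. The 3 groups of CIS KO did not overlap. The rise was 3.85 ± 0.41 at 24 h (adjusted p = 8.14e-09). At 4 h it was 1.67 ± 0.58 with an adjusted p of 0.0478, on 4 to 13 counts a library. That early call was lost when any of the unstimulated replicates 1, 3 and 4 or the 4 h replicates 1, 2 and 4 was left out, with adjusted p-values of 0.0596 to 0.201, and the rise without 4 h replicate 1 was 1.36. It was also lost by DESeq2 (adjusted p = 0.0682), with library size alone (0.0563) and with depth as a covariate (0.0502).

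TGFBRII KO cells gave no such rise. Itgae measured 6.33, 2.41 and 3.65 CPM unstimulated, 2.41, 1.44 and 2.29 CPM at 4 h, and 0, 3.77 and 2.38 CPM at 24 h. All 9 libraries held 0 to 5 counts. The 24 h change was -0.96 ± 0.78 (adjusted p = 0.92), and the response differed from that of WT by -5.47 ± 0.93 (adjusted p = 5.93e-05). At 24 h the receptor knockout differed from WT by -5.53 ± 0.42, a 46.3-fold lower level (adjusted p = 1.29e-12).

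The β7 chain, which CD103 needs to reach the surface, moved at the first time point. Itgb7 measured 109, 135, 112 and 129 CPM in unstimulated WT cells, 237 and 208 CPM at 4 h, and 259, 196, 252 and 229 CPM at 24 h. Every treated WT library lay above every unstimulated one. The rise was 0.86 ± 0.19 at 4 h (adjusted p = 0.00281) and 0.95 ± 0.15 at 24 h (adjusted p = 6.42e-06), and the step from 4 h to 24 h was 0.10 ± 0.19 (adjusted p = 0.819). CIS KO cells went from 91.1, 102, 78.5 and 101 CPM to 197, 231, 208 and 225 CPM at 4 h and to 256, 148, 234 and 322 CPM at 24 h. Those groups did not overlap with the unstimulated one either, with rises of 1.18 ± 0.18 (adjusted p = 6.15e-06) and 1.30 ± 0.17 (adjusted p = 3.75e-07). In TGFBRII KO the 9 libraries spanned 92.2 to 133 CPM, and the changes were -0.08 ± 0.18 and -0.07 ± 0.18. The difference in response from WT was -1.02 ± 0.24 at 24 h (adjusted p = 0.00284). At 4 h it was -0.93 ± 0.27 (adjusted p = 0.0255). This last call was lost without WT 4 h replicate 1 (adjusted p = 0.081) or 4 (0.0605), TGFBRII KO unstimulated replicate 1 (0.0545) or TGFBRII KO 4 h replicate 2 (0.0718).

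The balance of the 2 chains was compared within each library. The log2 ratio of their counts, with 0.5 added to each, was -4.78 ± 0.95 in unstimulated WT and -1.23 ± 0.49 at 24 h (SD, n = 4 each), a difference of 3.56. In CIS KO it was -4.43 ± 0.56 and -2.11 ± 0.85 (SD, n = 4 each), a difference of 2.33. In both genotypes the exact two-sided permutation p was 0.0286, the smallest that 4 against 4 libraries allow, and 0.0952 after adjustment over the 10 ratio tests computed. At these group sizes no ratio test could give an adjusted p under 0.05, so the adjusted values decide nothing. At 4 h the ratio differed by 0.11 in WT and 0.31 in CIS KO (exact permutation p = 1 and 0.429), and neither sign was stable: it was -0.36 in WT without unstimulated replicate 2, and -0.11 in CIS KO with 2 added to each count.

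CD49a was higher after TGFB1 in WT and CIS KO cells, and it was lower in the receptor knockout before TGFB1 was added. Itga1 measured 193, 186, 231 and 199 CPM in unstimulated WT cells, 274 and 312 CPM at 4 h, and 367, 353, 385 and 319 CPM at 24 h. The 3 WT groups did not overlap. The rise was 0.55 ± 0.15 at 4 h (adjusted p = 0.0153) and 0.81 ± 0.12 at 24 h (adjusted p = 2.1e-06). The 4 h call was lost without WT 4 h replicate 4, where the rise was 0.43 (adjusted p = 0.245), and with library size alone in place of TMM (0.45, adjusted p = 0.0655). CIS KO cells went from 152, 165, 167 and 210 CPM to 376, 433, 385 and 356 CPM at 4 h and to 418, 436, 342 and 315 CPM at 24 h. Both treated groups lay above the unstimulated one, with rises of 1.14 ± 0.13 (adjusted p = 3.82e-08) and 1.11 ± 0.13 (adjusted p = 2.68e-08). The step from 4 h to 24 h was -0.02 ± 0.12 in CIS KO and 0.26 ± 0.15 in WT (adjusted p = 0.934 and 0.307). The responses of CIS KO and WT differed by 0.59 ± 0.20 at 4 h, which did not pass (adjusted p = 0.569), and by 0.31 ± 0.17 at 24 h (adjusted p = 0.406).

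In TGFBRII KO cells Itga1 measured 105, 111 and 114 CPM unstimulated, below all 4 unstimulated WT libraries. The difference from WT was -0.88 ± 0.14 (adjusted p = 0.00148). Itga1 was 1 of only 15 genes, 0.146% of those tested, that passed in this comparison, and it was the only one of the 9 tested integrins to do so. The summed level of the 5 mast cell and basophil markers was 224 to 266 CPM in unstimulated TGFBRII KO and 175 to 208 CPM in unstimulated WT, and its part in this difference was not tested. At 4 h the values were 41.0, 74.9 and 73.2 CPM, and at 24 h 121, 109 and 102 CPM. The 4 h group lay below both others. The change was -0.81 ± 0.18 at 4 h (adjusted p = 0.00333) and 0.01 ± 0.16 at 24 h (adjusted p = 1). The T cell markers moved with this dip: their summed level was 182 to 228 CPM in TGFBRII KO at 4 h, 286 to 308 CPM unstimulated and 271 to 319 CPM at 24 h. The dendritic cell markers did so too, at 102 to 123 CPM at 4 h, 140 to 171 CPM unstimulated and 178 to 185 CPM at 24 h. The part of either in the result was not tested. Against WT the receptor knockout differed by -2.24 ± 0.18 at 4 h (adjusted p = 4.48e-11) and -1.68 ± 0.14 at 24 h (adjusted p = 1.41e-11), and its response differed by -1.36 ± 0.23 (adjusted p = 0.000211) and -0.80 ± 0.20 (adjusted p = 0.00614).

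CD49b, the other collagen-binding chain, was scarce in these libraries and gave no call. Itga2 held 0 to 15 counts a library and did not pass the count filter. In unstimulated WT it measured 7.63, 4.99, 12.6 and 11.1 CPM, at 4 h 7.52 and 5.01 CPM, and at 24 h 6.71, 1.08, 4.47 and 2.97 CPM. The groups overlapped. Unstimulated CIS KO measured 2.76, 1.86, 3.93 and 2.78 CPM, below all 4 unstimulated WT libraries, and that difference was -1.67 ± 0.64 without the filter (edgeR adjusted p = 0.0994). Summed over libraries, counts went from 33 unstimulated to 11 at 24 h, a rate ratio of 0.381 with a 95% interval of 0.174 to 0.773 that covers counting error only. Without the filter edgeR's quasi-likelihood test gave for this response -1.31 ± 0.55 (adjusted p = 0.11), which did not pass. TGFBRII KO held 17, 17 and 21 counts in the 3 conditions, with ratios of 1.01 and 1.21. CIS KO held 6, 8 and 2 counts, and 3 of its 4 libraries at 24 h had 0, with a 24 h ratio of 0.217 and an interval of 0.0214 to 1.22.

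The balance of CD49a to CD49b mRNA was compared over libraries as well, here with nothing added to the values. The log2 ratio of Itga1 to Itga2 was 4.56 ± 0.49 in unstimulated WT and 6.82 ± 1.10 at 24 h (SD, n = 4 each), with no overlap of the libraries and a difference of 2.26 (exact two-sided permutation p = 0.0286, the smallest possible, and 0.0952 adjusted). In CIS KO it could not be computed without a pseudocount, because Itga2 was at 0 in libraries at 4 h and 24 h. With 0.5 added to each count it was 5.53 ± 0.44 unstimulated and 8.63 ± 0.50 at 24 h (SD, n = 4 each; exact permutation p = 0.0286, and 0.0857 adjusted over 12 tests). In TGFBRII KO it was 4.02 ± 0.32 unstimulated and 3.79 ± 0.59 at 24 h (SD, n = 3 each; exact permutation p = 0.6, where 0.1 is the smallest possible), and without 24 h replicate 2 the difference of -0.23 became 0.03.

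**Figure D2:**
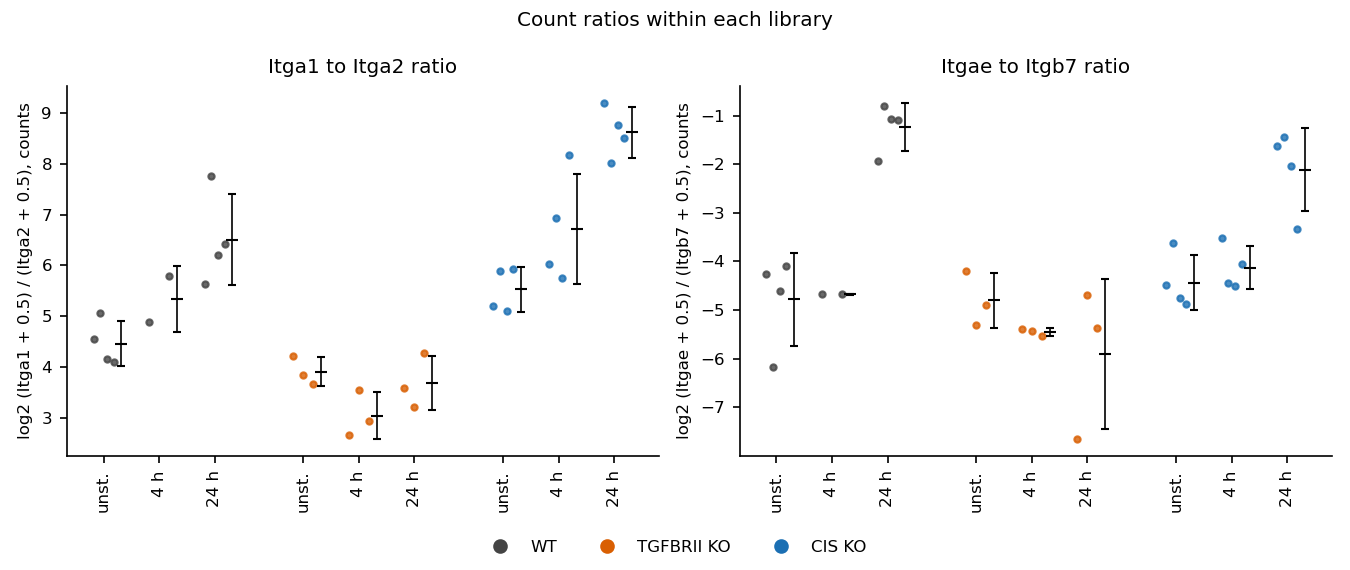
Log2 ratio of counts within each library (vertical axis, 0.5 added to each count) for Itga1 to Itga2 and Itgae to Itgb7, by group; points are libraries and bars are the mean ± SD. Libraries of WT and CIS KO at 24 h lie above the unstimulated ones of their genotype in both panels, and those of TGFBRII KO overlap with them.

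The common β1 chain showed smaller differences. Itgb1 measured 444, 395, 361 and 391 CPM in unstimulated WT, 504 and 456 CPM at 4 h, and 430, 431, 493 and 527 CPM at 24 h. The unstimulated and 24 h groups overlapped, and the changes of 0.26 ± 0.13 and 0.24 ± 0.10 did not pass (adjusted p = 0.17 and 0.079), although the 24 h change passed without WT unstimulated replicate 1 (0.30, adjusted p = 0.0433). In TGFBRII KO at 24 h it measured 367, 412 and 337 CPM, below all 4 WT libraries, a difference of -0.34 ± 0.11 (adjusted p = 0.0218). That call was lost without WT 24 h replicate 3 (adjusted p = 0.0544) or 4 (0.0797) and without TGFBRII KO 24 h replicate 1 (0.0705) or 3 (0.142). CD49d, which can pair with β1 or β7, passed in none of the 19 comparisons. Itga4 ranged from 55.7 to 165 CPM over the 31 libraries, and the pair of WT libraries at 4 h stood far apart at 86.4 and 165 CPM. Its change in WT at 4 h was 0.46 ± 0.21 (adjusted p = 0.151), and without 4 h replicate 4 it was -0.23. Its step from 4 h to 24 h in WT, -0.65 ± 0.22 (adjusted p = 0.0614), passed without WT 4 h replicate 1 at -0.90 (adjusted p = 0.017) and was 0.05 without replicate 4, and without CIS KO 24 h replicate 2 that in CIS KO passed at -0.85 (adjusted p = 0.00235).

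The β2 chain of the leukocyte integrins was lower at 24 h in WT, and fell further in CIS KO. Itgb2 measured 231, 206, 194 and 251 CPM in unstimulated WT, 188 and 192 CPM at 4 h, and 172, 140, 160 and 165 CPM at 24 h. No WT library at 24 h reached the unstimulated range. The fall was -0.47 ± 0.10 at 24 h (adjusted p = 0.000539), and at 4 h the change was -0.20 ± 0.13 (adjusted p = 0.323). CIS KO cells went from 290, 263, 293 and 230 CPM to 195, 240, 216 and 252 CPM at 4 h and to 126, 108, 117 and 134 CPM at 24 h. At 24 h all 4 libraries lay below all others of CIS KO, a change of -1.16 ± 0.11 (adjusted p = 2.74e-10), or a 2.23-fold fall. The CIS KO response at 24 h differed from that of WT by -0.69 ± 0.15 (adjusted p = 0.00653). The call was kept under all but 1 of 23 alternatives: with library depth as a covariate it was -0.49 (adjusted p = 0.0777). Between CIS KO and WT at 24 h the level differed by -0.41 ± 0.11 (adjusted p = 0.0264). That call was lost without WT 24 h replicate 1 (adjusted p = 0.0948), 3 (0.0607) or 4 (0.0692) and without CIS KO 24 h replicate 2 (0.0962) or 3 (0.0542), and by DESeq2 (0.0647).

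In TGFBRII KO no fall of Itgb2 passed. It measured 248, 248 and 258 CPM unstimulated, 225, 222 and 212 CPM at 4 h, and 258, 250 and 254 CPM at 24 h. The 24 h change was 0.01 ± 0.11 (adjusted p = 0.996), and the level at 24 h was above that of WT by 0.68 ± 0.11 (adjusted p = 5.51e-06). The difference in response from WT, 0.48 ± 0.15 (adjusted p = 0.0272), was lost without WT unstimulated replicate 4 (adjusted p = 0.0724), WT 24 h replicate 2 (0.0736), TGFBRII KO unstimulated replicate 1 (0.06) or 2 (0.059), or TGFBRII KO 24 h replicate 1 (0.0572) or 3 (0.0531), and by DESeq2 (0.0747).

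Itgam and Itgal, both α partners of β2, fell at 24 h in CIS KO cells. The summed level of the 9 NK cell markers was also lower there, at 2367 to 3471 CPM at 24 h and 3539 to 5173 CPM unstimulated, and its part in the falls of Itgb2, Itgam and Itgal was not tested. Itgam, the CD11b chain, measured 105, 110, 110 and 110 CPM in unstimulated CIS KO, 125, 85.6, 109 and 76.6 CPM at 4 h, and 56.6, 70.8, 88.9 and 52.2 CPM at 24 h. The 24 h libraries lay below the unstimulated ones, a change of -0.68 ± 0.18 (adjusted p = 0.00484). In WT it measured 142, 106, 123 and 134 CPM unstimulated and 126, 113, 167 and 178 CPM at 24 h, and the change of 0.19 ± 0.14 did not pass (adjusted p = 0.374). CIS KO at 24 h lay below WT by -1.09 ± 0.16 (adjusted p = 3.33e-05), with no overlap. The difference in response, -0.87 ± 0.23 (adjusted p = 0.0399), was fragile: it was lost under 14 of 23 alternatives, 11 of which left out a single library. These were WT unstimulated replicates 2 and 3, WT 24 h replicates 3 and 4, all 4 unstimulated CIS KO replicates and CIS KO 24 h replicates 1, 2 and 4, with adjusted p-values of 0.0559 to 0.119. Without WT 24 h replicate 4 the difference was -0.77. In TGFBRII KO at 4 h Itgam gave -0.51 ± 0.17 (adjusted p = 0.0506), which passed without replicate 2 of that group (-0.62, adjusted p = 0.044).

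Itgal, the CD11a chain, measured 365, 291, 318 and 284 CPM in unstimulated CIS KO and 225, 179, 231 and 259 CPM at 24 h, without overlap, a change of -0.50 ± 0.13 (adjusted p = 0.00606). With library depth as a covariate the change was -0.24, and the call held under all 15 alternatives, with adjusted p-values up to 0.0467. In WT the change at 24 h was -0.27 ± 0.13 (adjusted p = 0.146), and the difference between the responses, -0.23 ± 0.19, did not pass (adjusted p = 0.563). Itgav, the αv chain, rose at 1 time point: CIS KO cells went from 124, 139, 155 and 147 CPM unstimulated to 208, 247, 173 and 188 CPM at 4 h, without overlap, a rise of 0.51 ± 0.12 (adjusted p = 0.00373). At 24 h it measured 150 to 179 CPM, and the change of 0.22 ± 0.12 did not pass (adjusted p = 0.187). In WT its changes were 0.20 ± 0.15 and 0.08 ± 0.12 (adjusted p = 0.426 and 0.691).

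**Figure D3:**
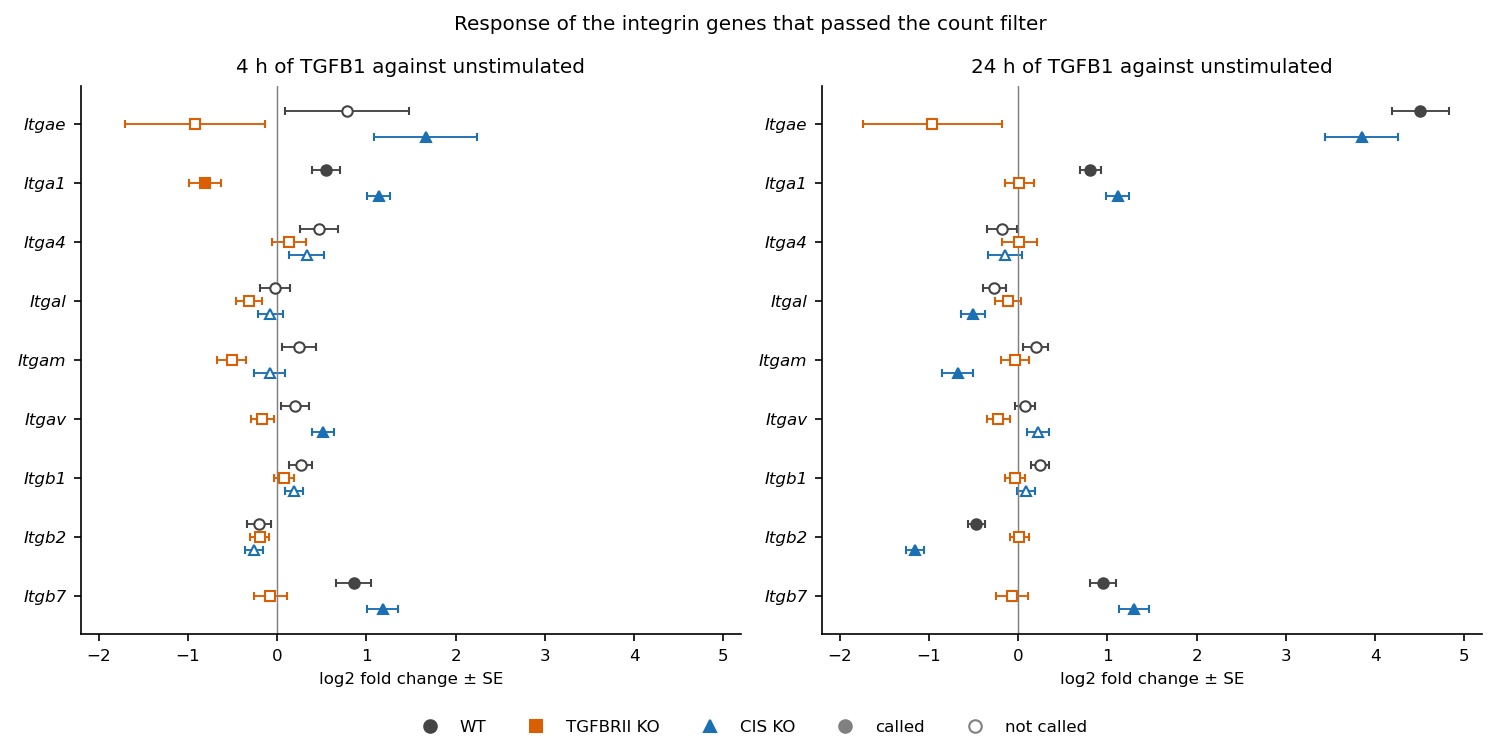
Log2 fold change ± SE (horizontal axis) of the 9 integrin genes that passed the count filter, after 4 h (left) and 24 h (right) of TGFB1 against unstimulated cells of the same genotype; filled symbols passed at an adjusted p under 0.05. Itgae reaches 4.51 in WT and 3.85 in CIS KO at 24 h, and in TGFBRII KO the only filled symbol is that of Itga1 at 4 h, at -0.81.

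Counted over the 9 tested genes, the integrins that passed can be set beside the share of all 10275 genes that passed. The members were chosen with earlier results of these data known, so these counts describe and test nothing. Itgae held at most 13 counts a library outside the 24 h groups of WT and CIS KO, so it passed the count filter through the groups where it was high. In WT 2 of 9 passed at 4 h, both higher, beside 11.9% of all genes, and 4 of 9 at 24 h, 3 higher and 1 lower, beside 21.1%. In CIS KO 4 of 9 passed at 4 h, all higher, beside 14.1%, and 6 of 9 at 24 h, 3 in each direction, beside 24%. The median log2 fold change of the 9 at 24 h was 0.19 in WT and 0.09 in CIS KO, beside 0.03 and 0.04 over all genes. In TGFBRII KO 1 of 9 passed at 4 h, lower, beside 8.02%, and at 24 h 0 of 9 passed beside 0.0195%. At 24 h in that knockout none had an unadjusted p under 0.05 and DESeq2 also called none. From 4 h to 24 h 1 of 9 passed in WT, Itgae, beside 7.57% of all genes. In TGFBRII KO it was again 1 of 9, Itga1, beside 8.17%, where it rose by 0.82 ± 0.18 (adjusted p = 0.00256). In CIS KO 4 of 9 passed beside 15.4%: Itgae rose by 2.19 ± 0.32 (adjusted p = 1.7e-05), and Itgb2, Itgam and Itgal fell. Of these, Itgb2 changed by -0.90 ± 0.11 (adjusted p = 7.74e-07). Itgam, at -0.60 ± 0.18 (adjusted p = 0.0215), was lost without CIS KO 4 h replicate 1 (adjusted p = 0.142) or 3 (0.0557) or 24 h replicate 1 (0.0569). Itgal, at -0.43 ± 0.14 (adjusted p = 0.0293), was lost without CIS KO 4 h replicate 2 (0.112), 3 (0.0984) or 4 (0.0762) or 24 h replicate 2 (0.15), and with depth as a covariate it was -0.16.

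Between TGFBRII KO and WT, 2 of 9 passed at 4 h, Itga1 and Itgb7, both lower, beside 11.8% of all genes. At 24 h 5 of 9 passed beside 21.6%, with Itgb2 higher and Itgae, Itga1, Itgb1 and Itgb7 lower. The responses of the same genotypes differed for 2 of 9 at 4 h beside 7.57%, and for 4 of 9 at 24 h beside 10.8%. Between CIS KO and WT, 0 of 9 passed in unstimulated cells beside 6.15%, with 2 at an unadjusted p under 0.05 and 0 by DESeq2. Itgb2 there, at 0.28 ± 0.10 (adjusted p = 0.0671), passed without unstimulated replicate 4 of WT (0.35, adjusted p = 0.0474) or of CIS KO (0.36, adjusted p = 0.0263). At 4 h 0 of 9 passed beside 0.273%, with 3 at an unadjusted p under 0.05 and 0 by DESeq2. At 24 h 3 of 9 passed, all lower, beside 3.27%: Itgam and Itgb2, described above, and Itgae at -0.84 ± 0.21 (adjusted p = 0.0185), whose libraries overlapped. This Itgae call was lost without WT 24 h replicate 2 (adjusted p = 0.0592), 3 (0.0864) or 4 (0.0541) or CIS KO 24 h replicate 4 (0.0721), and by DESeq2 (0.0875), and the Itgae responses themselves differed by -0.66 ± 0.74 (adjusted p = 0.7). The responses of CIS KO and WT differed for 0 of 9 at 4 h beside 0%, with 1 at an unadjusted p under 0.05 and 0 by DESeq2, and for 2 of 9 at 24 h beside 1.33%. All comparisons with WT at 4 h rest on its 2 libraries.

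Levels of different genes were compared only per kilobase of exon, using the exons of RefSeq-linked transcripts. Among the 10 members in unstimulated WT, the β chains Itgb1 and Itgb2 were highest, at 104 and 74.3 CPM per kilobase. Itgal at 55.7 and Itgb7 at 45.1 followed. Outside the members, Itgb3 stood at 57.0 and Itgax at 47.8 CPM per kilobase in this group. Of the other member α chains, Itgam stood at 27.0, Itgav at 20.3, Itga1 at 18.4 and Itga4 at 10.3 CPM per kilobase. Itga2 stood at 1.28 and Itgae at 1.13. At 24 h in WT the order had changed: Itgb7 at 87.2 lay above Itgb2 at 53.6, and Itga1 at 32.4 and Itgae at 26.4 stood beside Itgam at 31.2 CPM per kilobase. Over all GENCODE exons the same levels were 19.1 for Itga1, 22.1 for Itgae and 29.1 for Itgam, so the place of Itga1 among them depends on the exons counted. In TGFBRII KO at 24 h Itgb2 at 85.4 remained above Itgb7 at 44.0 CPM per kilobase. In CIS KO at 24 h Itgb7 stood at 89.4 and Itgb2 at 40.8 CPM per kilobase.

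**Figure D4:**
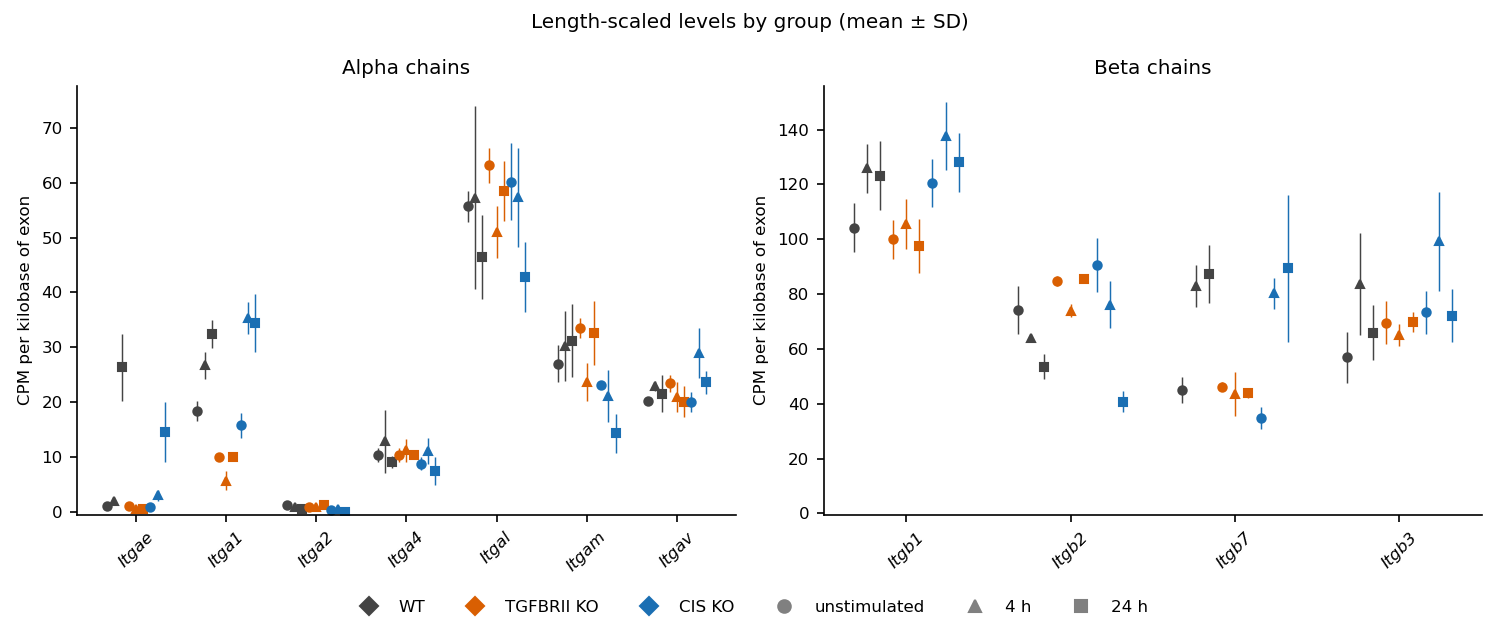
Group mean ± SD (vertical axis, CPM per kilobase of exon) of the α chains (left) and β chains (right, with Itgb3 added), coloured by genotype and shaped by condition. Itgb1 is at 97.5 to 138 in all groups, and Itgb7 lies above Itgb2 in WT and CIS KO after TGFB1.

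The remaining integrin genes were mostly too weakly counted to pass the filter. Of 17 listed, 5 passed the count filter, and Itga8, Itgb6 and Itgb8 were at 0 in every library. Itgb3, the β3 partner of αv, was abundant at 330 to 574 CPM by group mean. Of the 5, 1 passed in WT at 4 h beside 11.9% of all genes and 1 at 24 h beside 21.1%. Itgb3 rose at 4 h in WT by 0.53 ± 0.17 (adjusted p = 0.0372) and in CIS KO by 0.43 ± 0.14 (adjusted p = 0.0286). Itgax, the CD11c chain that also pairs with β2, rose at 24 h in WT by 0.36 ± 0.11 (adjusted p = 0.0172). In TGFBRII KO its 24 h response differed from that of WT by -0.65 ± 0.17 (adjusted p = 0.0101). In CIS KO at 24 h, where Itgam and Itgal fell, the Itgax change of 0.21 ± 0.13 did not pass (adjusted p = 0.222). Itga3, Itga6 and Itgb5, at 4.83 to 24.5 CPM by group mean, passed in none of the responses.

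Genes that switch integrins on or tie them to actin moved in both directions. Of 31 listed, 24 were tested. In WT 5 rose and 1 fell at 4 h, 25.0% of the 24 beside 11.9% of all genes, and 1 rose and 2 fell at 24 h, 12.5% beside 21.1%. In CIS KO 3 rose and 1 fell at 4 h, 16.7% beside 14.1%, and 0 rose and 5 fell at 24 h, 20.8% beside 24%, where DESeq2 called 3. In TGFBRII KO 0 of 24 passed at 4 h beside 8.02% and at 24 h beside 0.0195%, with 3 and 0 at an unadjusted p under 0.05 and 0 by DESeq2 at either time. The median of the 24 at 24 h in WT was 0.02, beside 0.03 over all genes. Rasgrp2, the exchange factor that activates RAP1, fell by 1.00 ± 0.21 in WT at 24 h on the log2 scale (adjusted p = 0.000422) and by 1.45 ± 0.31 in CIS KO (adjusted p = 0.000634), while TGFBRII KO gave 0.02 ± 0.20 (adjusted p = 1). Apbb1ip, the RAP1 effector RIAM, changed by -0.38 ± 0.09 in WT at 24 h (adjusted p = 0.00111). Ptk2b, the adhesion kinase PYK2, changed by 0.41 ± 0.14 (adjusted p = 0.0257). In CIS KO at 24 h neither passed, at -0.22 ± 0.09 for Apbb1ip and 0.23 ± 0.14 for Ptk2b (adjusted p = 0.0741 and 0.227). Pxn, the focal adhesion adaptor paxillin, rose at 4 h in WT by 0.69 ± 0.13 (adjusted p = 0.000475). Its WT change at 24 h, 0.28 ± 0.11, did not pass (adjusted p = 0.0587).

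The genes for counter-receptors and for the release of TGF-β held the ligand of CD103 itself. Of 14 listed, 7 were tested, and 2 rose and 2 fell in WT at 24 h, 57.1% of the 7 beside 21.1% of all genes, with a median log2 fold change of -0.05 beside 0.03. Cdh1, which encodes E-cadherin, measured 6.06 ± 2.63 CPM in unstimulated WT and 32.9 ± 2.86 CPM at 24 h (SD, n = 4 each), a rise of 2.37 ± 0.34 (adjusted p = 1.67e-06). In CIS KO it rose by 1.54 ± 0.33 (adjusted p = 0.000723), and in TGFBRII KO it changed by -0.10 ± 0.51 (adjusted p = 0.994), a difference in response from WT of -2.47 ± 0.63 (adjusted p = 0.00714). Icam2, a ligand of CD11a, changed by -0.70 ± 0.18 in WT (adjusted p = 0.00328) and -1.14 ± 0.22 in CIS KO (adjusted p = 0.000227) at 24 h. Nrros, which anchors latent TGF-β, changed by -0.54 ± 0.10 in WT at 24 h (adjusted p = 0.000125), and Tgfb1 itself by 0.84 ± 0.27 (adjusted p = 0.0226). In CIS KO at 24 h Nrros changed by -0.63 ± 0.11 (adjusted p = 8.03e-05), and the Tgfb1 change of 0.30 ± 0.32 did not pass (adjusted p = 0.527).

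The genes whose group means were most like those of Itgae were Tgfbr3 (Pearson r = 0.98), F8a (0.97), Pcnx (0.97), Zxdc (0.97) and 2610507I01Rik (0.96), over the 9 group means of log2(CPM + 1) and 11239 genes compared. For Itga1 they were Agap1 (0.99), Pkp2 (0.97), Cfap53 (0.97), Gpr34 (0.97) and Dock5 (0.97). Itgae and Itga1 themselves gave r = 0.78, and Itgae and Itgb2 gave r = -0.85. These values describe 9 points from a single experiment, and they carry no test.

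Some reads cannot be assigned to an integrin with certainty, because the sources used here do not state the strand setting of the counting. In GENCODE M21, 5 of the members overlap another gene. Cerkl shares 1124 exon bases with Itga4 on the opposite strand and stood at or below 6.89 CPM by group mean. Gm49368 shares 3450 exon bases with Itgam on the same strand and Gm49395 shares 685 with Itga1, so values of these members may include or lose reads of those genes. Haspin lies within Itgae and Pelo within Itga1 without shared exon bases. Haspin measured 40.9 ± 12.2 CPM in unstimulated WT and 44.3 ± 12.2 CPM at 24 h, and Pelo 120 ± 3.13 and 130 ± 12.7 CPM (SD, n = 4 each). Itgae spans chr11:73090505-73147449, Itga1 chr13:114958079-115101964, Itgb7 chr15:102215994-102233405 and Itgb2 chr10:77530329-77565708 in mm10.

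Markers of other cell types moved with the responses. Of the mast cell and basophil markers Cpa3 and Mcpt8 passed, and Ms4a2 and Fcer1a were at 0 in every library. The summed level of the 5 markers was 49.2 to 74.2 CPM in WT and 69.3 to 85.0 CPM in CIS KO at 24 h, and 144 to 266 CPM in all other groups. The stroma and epithelium markers, of which only Epcam and Pecam1 passed the count filter, were higher in sum after TGFB1 in WT and at 4 h in CIS KO. In WT they stood at 341 to 417 CPM at 4 h and 306 to 334 CPM at 24 h beside 262 to 302 CPM unstimulated. In CIS KO they stood at 378 to 487 CPM at 4 h beside 341 to 371 CPM. Those of group 2 and 3 innate lymphoid cells were higher at 4 h, at 278 to 301 CPM beside 148 to 224 CPM in WT and 214 to 269 CPM beside 151 to 199 CPM in CIS KO. The myeloid markers were higher in WT at 4 h, at 37.6 to 48.9 CPM beside 20.0 to 36.0 CPM. The summed level of the 9 NK markers in WT ran from 2785 to 3298 CPM at 24 h and from 2942 to 3635 CPM unstimulated, which overlap. The part of any of these in the rises of Itgae, Itga1, Itgb7 and Itgav was not tested. Between genotypes at 24 h, the myeloid markers stood at 29.7 to 34.8 CPM in CIS KO and 17.9 to 23.7 CPM in WT. The NK markers stood at 3435 to 3683 CPM in TGFBRII KO, above WT. The dendritic cell markers stood at 178 to 185 CPM in TGFBRII KO and 109 to 142 CPM in WT. Those of group 2 and 3 innate lymphoid cells stood at 126.2 to 168.5 CPM and 173.2 to 294.6 CPM. At 4 h the T cell markers were lower in TGFBRII KO than in WT, at 182 to 228 CPM beside 259 to 271 CPM. The myeloid and innate lymphoid cell markers were lower there too, and the latter also in CIS KO, without overlap. The part of these in the genotype differences was not tested.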

How the data were processed

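Total RNA of sorted NK cells was sequenced from directional Illumina libraries, per the labels' protocols. The authors deposited a table of raw read counts per gene, for which featureCounts, Subread, Trimmomatic, FastQC, SAMtools and Picard are named with the build mm10, per the submitters' processing notes. Versions, strand setting and duplicate handling were not stated there. Library totals ran from 297561 to 1403005 counts, and no 2 libraries were identical.

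Symbols came from RefSeq (GRCm38.p6) and exon lengths from GENCODE M21. Counts were tested in edgeR 4.0.16 (R 4.3.3). Genes were filtered by filterByExpr on the 9 groups, which kept 10275 genes and 9 of the 10 members, scaled by TMM, and fitted over all 31 libraries with the quasi-likelihood F-test. There were 19 contrasts (responses, later steps, genotypes and response differences), each with Benjamini-Hochberg adjustment over all genes and a call at an adjusted p under 0.05. Standard errors are the log2 fold change divided by the square root of F. Ratios were tested by exact two-sided permutation over libraries. The procedure was tested on simulated data. Intervals and count floors cover counting error only. Figures were drawn with matplotlib 3.10.9 in Python 3.11.15.

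Members and gene lists were chosen with earlier results of these data known. All members are described, as are the other integrins that passed the filter, with the 5 activation genes and 4 counter-receptor genes of smallest p in the WT 24 h response (Actn4 of the first, at -0.25 ± 0.12 with an edgeR adjusted p of 0.127, did not pass) and the 5 genes most like Itgae and Itga1. Alternatives were RLE size factors, library size alone, no filter on low counts, depth as a covariate, a replicate block, only the groups compared, DESeq2 1.42.0, other pseudocounts and leaving out each library.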

Additional observations from a re-analysis of the deposited data

Results flagged for a closer look

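A total of 3 values stood far from the rest of their group by Dixon's criterion, among 50 sets of 4 libraries checked, where chance gives about 1 in 20. Itgae in unstimulated CIS KO had 1 library at 7.42 CPM and the others from 1.96 CPM, which is 4 counts. Itga2 in CIS KO at 24 h had 1 library at 1.35 CPM (2 counts) and 3 at 0. Itgam in unstimulated CIS KO had 1 library at 104.9 CPM beside others up to 110.0 CPM.

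For 8 gene responses the difference between genotypes passed edgeR's test of that difference. Against WT, TGFBRII KO differed at 4 h by -1.36 for Itga1 and -0.93 for Itgb7 on the log2 scale. At 24 h it differed by -5.47 for Itgae, -0.80 for Itga1, -1.02 for Itgb7 and 0.48 for Itgb2. CIS KO differed from WT at 24 h by -0.87 for Itgam and -0.69 for Itgb2.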

How the results depend on the processing

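Over 171 gene results and 2628 alternative values, 2515 kept their side of the threshold, 71 lost a call and 42 gained one. The sign turned in 118 of these values, for 46 gene results, and 0 of the 118 involved a change that passed before or after. In the WT response at 4 h without WT 4 h replicate 4, Itga4 went from 0.46 to -0.23, Itgam from 0.24 to -0.07 and Itgal from -0.02 to 0.31. Counts of integrins called moved by more than 1.5 times as follows, and the cause was not tested. For the WT response at 4 h (2 called) library size alone gave 1 and depth as a covariate 4, and leaving out a library 1 to 2. For WT from 4 h to 24 h (1) no filter and the depth covariate gave 2 each, and leaving out a library 1 to 2. For TGFBRII KO at 4 h (1) RLE size factors and no filter gave 2 each, the depth covariate and only the groups compared 3 each, and leaving out a library 1 to 2. For TGFBRII KO from 4 h to 24 h (1) no filter, the depth covariate and only the groups compared gave 2 each, and leaving out a library 1 to 2. For CIS KO from 4 h to 24 h (4) only the groups compared gave 2, and leaving out a library 2 to 4. For the TGFBRII KO response difference at 4 h (2) leaving out a library gave 1 to 3. Between CIS KO and WT, unstimulated cells (0) gave 0 to 1 when a library was left out, and 24 h (3) gave 1 by DESeq2, 1 with only the groups compared and 1 to 3 without a library. For the CIS KO response difference at 24 h (2) library size alone and only the groups compared gave 1 each, the depth covariate 0, and leaving out a library 1 to 2. No ratio test could reach the threshold at these group sizes, and 4 ratio values turned sign, 3 of them given in the report. Beyond the calls lost in the report, at 24 h without the filter Itgb1 (TGFBRII KO against WT) gave an adjusted p of 0.0681, Itgb2 0.0754 for the TGFBRII KO response difference and 0.0663 for CIS KO against WT. With only the groups compared, CIS KO against WT gave 0.121 for Itgae and 0.199 for Itgb2, and the CIS KO step from 4 h to 24 h gave 0.104 for Itgal and 0.0537 for Itgam, and for Itgam also 0.0623 with library size alone.

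Whether replicate numbers pair the libraries was not settled. Of 29 same-number pairs 7 had a correlation of deviations over 0.1, and all ran from -0.388 to 0.25. Those of TGFBRII KO were all positive, at 0.015 to 0.198. Pairs with different numbers were not compared. With the replicate block TGFBRII KO at 4 h gave 2 calls in place of 1, and its response difference at 4 h gave 1 in place of 2. It ended the calls of Itgae in CIS KO at 4 h (1.49, adjusted p = 0.0784), of Itgal in CIS KO from 4 h to 24 h (-0.43, 0.0567) and of Itgb7 for the TGFBRII KO response difference at 4 h (-0.92, 0.0506), and Itgam in TGFBRII KO at 4 h (-0.51, 0.0377) and Itga4 in CIS KO from 4 h to 24 h (-0.57, 0.0351) passed with it. The block moved no other count by more than 1.5 times. Ratio differences under the block were 3.56 for Itgae to Itgb7 and 2.26 for Itga1 to Itga2 in WT at 24 h, and -0.50 for Itgae to Itgb7 in WT at 4 h, in place of 0.11. Low counts of Itgae outside the 24 h groups and of Itga2 limit what can be seen of them.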
